A study of Mus musculus with 6 samples.

Results

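The genes examined were 10 regulators of mRNA decay, namely Zfp36, Zfp36l1 and Zfp36l2, Btg1, Btg2 and Btg3, Tob1 and Tob2, and Cnot7 and Cnot8, out of 27179 genes in the deposited count table. They were taken by gene symbol from the normalized table and by the same gene identifier from the counts. RNA-Seq had been performed on long-term hematopoietic stem cells (LT-HSCs) that were sorted as CD150+CD48-LSK from the BM of C57BL/6 mice at 8 weeks of age. There were 3 libraries from WT mice and 3 from Foxm1 heterozygous mice (Foxm1 HET), and no treatment was named for either genotype. The titles of the Foxm1 HET libraries name a floxed Foxm1 allele over a WT allele without a Cre driver. The methods describe both Tie2-Cre, which acts in endothelial and blood-forming cells, and Mx1-Cre, which poly(I:C) induces, and do not say which was used for RNA-Seq. For other experiments they write Foxm1 HET for Tie2-Cre Foxm1fl/+ mice and WT for floxed Foxm1fl/+ mice. The genotype in the titles of the Foxm1 HET libraries is thus one that the paper elsewhere gives to its controls. Whether the WT libraries came from floxed mice is not stated. The methods speak of 3 pairs of mice, and the labels tie no library to a mouse or a pair, so the p-values measure the spread between libraries.

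Short AU-rich elements in the 3′ untranslated part of many mRNAs for cytokines, growth regulators and early-response proteins mark those mRNAs for quick removal. The Zfp36 proteins bind these elements through paired CCCH zinc fingers and bring in the CCR4-NOT complex, which shortens the poly(A) tail. The Btg and Tob proteins are antiproliferative adaptors that bind Cnot7 and Cnot8, the DEDD-type deadenylase subunits of that complex, and in blood cells several of them are associated with rest and restraint of activation. Levels of these mRNAs do not measure the activity of the proteins.

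With edgeR's quasi-likelihood test, 0 of the 10 genes passed an adjusted p of 0.05 when LT-HSCs of both genotypes were compared. Across all 8195 genes tested, 0.329% passed that threshold, 0.317% as higher and 0.0122% as lower in Foxm1 HET. All 10 regulators had enough reads to be tested. Among them 1, Cnot7, had an unadjusted p under 0.05, against 6.03% of all genes. Limma-voom and limma on the deposited normalized table also called 0 of the 10. DESeq2 called 0 of the 8 for which it gave an adjusted p, beside 3.13% of all genes with one, and it gave none for Zfp36 and Cnot7. On the scale of log2 CPM (reads relative to the library total, scaled by the TMM method) the genotypes overlapped for all 10, while they did not overlap for 8.68% of all genes tested. The fitted difference was positive for 6 and negative for 4, with a median log2 fold change of 0.40 in Foxm1 HET over WT against -0.26 over all genes tested.

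The libraries held 14573002 to 25798509 counted reads, and the mitochondrial ribosomal RNAs took 20.1% to 26.1% of them. Foxm1 itself was counted 659, 5 and 742 times in Foxm1 HET replicates 1, 2 and 3 against 1182, 2615 and 2942 in WT. Its log2 fold change was -3.30 (SE 2.33, edgeR adjusted p = 0.961). In log2 CPM its genotypes did not overlap, and 4.55% of all genes tested lay lower in this way. Foxm1 HET replicate 2 stood apart, with 50.1% of the genes tested at 10 reads or fewer against 4.84% to 33.7% in the other libraries. It had the fewest counted reads, 14573002, but this share did not follow the read total throughout. WT replicate 3 had 33.7% with 21525836 reads and WT replicate 1 had 16.1% with 20077023. The cause was not tested. Foxm1 HET replicate 2 also had the lowest TMM factor, 0.453, followed by WT replicate 3 at 0.757, and the highest was 1.67 in Foxm1 HET replicate 3. A low factor raises every log2 CPM in that library, so levels are given below in reads and per length as well. Slamf1, which encodes the sorting marker CD150, had 2, 1572 and 0 reads in WT against 8, 0 and 543 in Foxm1 HET. Cd48, which encodes the marker sorted against, reached 6608 reads in WT replicate 2. Kit, which encodes the K of the LSK gate, had 10720 to 48031 reads in the 6 libraries. Ly6a, which encodes Sca-1, the S of that gate, had 125, 4 and 2 reads in WT against 2261, 2 and 1597 in Foxm1 HET, so that it was near 0 in WT replicates 2 and 3 and in Foxm1 HET replicate 2. The summed level of 13 neutrophil and monocyte markers, which include Mpo, Ngp and S100a9, ran from 8199 to 18893 RPKM (reads scaled to exon length and library total) in WT and from 2033 to 11830 RPKM in Foxm1 HET. Of these 13 markers, 0 or 1 per library had 3 reads or fewer. EdgeR called none of them at an adjusted p of 0.05, and 4 fold changes were positive and 9 negative. In log2 CPM the genotypes did not overlap for Prtn3, higher in Foxm1 HET, and S100a9, lower, beside 8.68% of all genes tested. Prtn3 had 13, 71 and 2 reads in WT against 1197, 365 and 5247 in Foxm1 HET. Its adjusted p was 0.844 with edgeR and 0.0109 with DESeq2, which called 3.13% of all genes with one. The 3 markers of later progenitors summed to 33.9, 657 and 5.73 RPKM in WT against 106, 17.98 and 233 in Foxm1 HET. Those of the 7 erythroid markers with a row were 183, 199 and 510 RPKM in WT against 238, 72.1 and 286 in Foxm1 HET, and the 5 of them that were tested all had a negative fold change with an edgeR adjusted p of at least 0.993. The summed levels of B cell, T and NK cell, megakaryocyte and endothelial markers were at most 82.2 RPKM in any library. The part of such transcripts in the levels of the decay regulators was not tested, and fewer cells of a type cannot be told apart from less RNA per cell in bulk libraries.

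**Figure D1:**
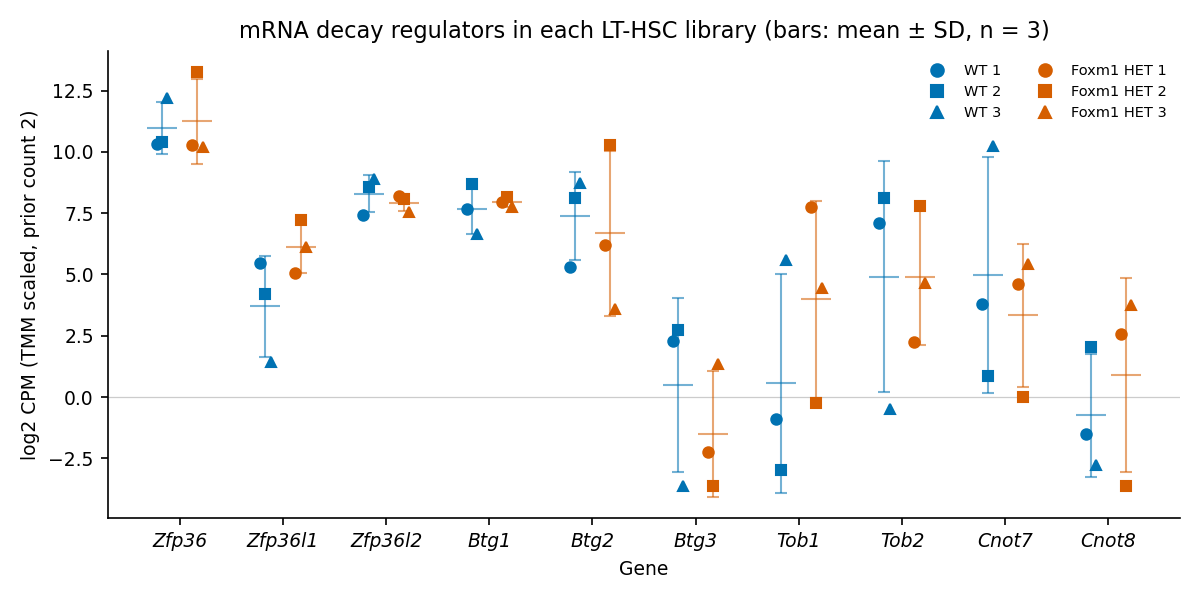
Log2 CPM of the 10 mRNA decay regulators (vertical axis) in the 3 WT and 3 Foxm1 HET libraries, with marker shape for the replicate number and bars for the mean ± SD (n = 3). Zfp36 was the highest in every library, Zfp36l2 and Btg1 were tightly grouped, and Tob1, Tob2, Cnot7 and the low genes spread over many log2 units within each genotype.

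Zfp36, which encodes tristetraprolin, the founding AU-rich element binding protein, was the most abundant of the 10 in each of the 6 libraries. The gene lies on the minus strand of chromosome 7 of GRCm38 (28376784 to 28379228) in 2 exons. Its reads numbered 28060, 30917 and 75018 in WT against 47774, 63650 and 49762 in Foxm1 HET, so that no library held fewer than 28060. Per length, these counts came to 792, 761 and 1975 RPKM in WT against 1063, 2475 and 1093 in Foxm1 HET. Among all genes of the count table it ranked between 8 and 27 by RPKM, which places it among the most abundant mRNAs of the sorted cells. Its log2 CPM averaged 10.97 ± 1.06 in WT (SD, n = 3) against 11.26 ± 1.74 in Foxm1 HET (SD, n = 3). The highest values were in WT replicate 3 and Foxm1 HET replicate 2, the 2 libraries with the lowest TMM factors, and the other 4 libraries lay between 10.22 and 10.42. The log2 fold change was 0.74 (SE, the standard error, 1.15, edgeR adjusted p = 0.998), and the two-sided exact permutation test on log2 CPM gave p = 1, where 3 libraries against 3 cannot give a p below 0.1.

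The sign for Zfp36 turned when 1 library, Foxm1 HET replicate 2, was left out (log2 fold change -0.94) and with limma-voom (-0.34), and each scaling kept it positive. With library totals as the only scaling the log2 fold change was 0.40, with RLE scaling 1.56 and with upper-quartile scaling 1.09, while the median over all genes moved from -0.26 to 0.10, -0.13 and 0.14, respectively. In the normalized table, which is on a log2 scale, Zfp36 stood at 11.05, 10.79 and 11.27 in WT and at 11.35, 12.47 and 12.04 in Foxm1 HET. There each Foxm1 HET library lay above each WT library, by a mean of 0.92, and among all its genes the genotypes did not overlap for 9.64%, 5.87% with Foxm1 HET higher. Limma gave this difference an adjusted p of 0.885, where the alternatives that gave one ran from 0.781 to 1.

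Zfp36l2, a paralog known to be needed for hematopoietic stem cells in mice, came next and had the lowest spread of the 10 in TMM-scaled log2 CPM. It lies on chromosome 17 (84183924 to 84187947, minus strand). It had 3837, 8473 and 7606 reads in WT against 11060, 1767 and 7724 in Foxm1 HET. Its log2 CPM averaged 8.29 ± 0.76 in WT (SD, n = 3) against 7.93 ± 0.35 in Foxm1 HET (SD, n = 3), with the genotypes interleaved. The pooled SD within genotypes was 0.59, against a median of 3.13 over all genes tested, whose median level of 2.82 log2 CPM was far lower. The log2 fold change was -0.45 (SE 1.58, edgeR adjusted p = 0.998), and the two-sided exact permutation test gave p = 0.5.

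Zfp36l1, the third AU-rich element binding protein of the family, was the least abundant of these paralogs. It lies on chromosome 12 (80107760 to 80113013, minus strand). Its reads were 980, 412 and 42 in WT against 1255, 964 and 2910 in Foxm1 HET, with the lowest count in WT replicate 3 and the highest in Foxm1 HET replicate 3. Its log2 CPM averaged 3.70 ± 2.06 in WT (SD, n = 3) against 6.13 ± 1.09 in Foxm1 HET (SD, n = 3), and WT replicate 1 lay above Foxm1 HET replicate 1. Its log2 fold change was 1.95 (SE 2.32, edgeR adjusted p = 0.998; two-sided exact permutation p = 0.2). It kept its sign in all 15 alternative fits, from 1.28 without Foxm1 HET replicate 2 to 2.9996 without WT replicate 1, and the adjusted p ran from 0.514 with DESeq2 to 1 with the replicate block. In RPKM, where library totals alone set the scale, the levels were 16.4, 6.00 and 0.654 in WT against 16.5, 22.2 and 37.8 in Foxm1 HET, so the genotypes parted by the narrow gap between both replicates 1. On that scale 7.97% of all genes tested did not overlap, 5.05% with Foxm1 HET higher.

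Within the family, Zfp36 supplied 87.4% to 95.2% of the summed RPKM in WT and 88.4% to 97.8% in Foxm1 HET. Zfp36l2 supplied 1.35% to 11.9% and Zfp36l1 0.0315% to 3.11%. These shares compare genes within a library and do not depend on the scaling between libraries. The ranges of the genotypes overlapped for each of the paralogs.

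The 250 bases before the transcription start were read from RefSeq (GRCm38.p6) for the 8 of the 10 genes that had an entry, and 4 motifs were searched on both strands. They were the forkhead core TAAACA, the cell cycle homology region TTTGAA, the core of the cAMP response element TGACGT, and the CArG box of serum response factor. Promoters with at least 1 match are shown because the first and second motifs are those through which Foxm1 and its partners are known to reach promoters, and the others are those of early-response genes. Capitals mark the matches, and each sequence is on the strand of its gene.
Zfp36, chr7:28379229-28379478, minus strand: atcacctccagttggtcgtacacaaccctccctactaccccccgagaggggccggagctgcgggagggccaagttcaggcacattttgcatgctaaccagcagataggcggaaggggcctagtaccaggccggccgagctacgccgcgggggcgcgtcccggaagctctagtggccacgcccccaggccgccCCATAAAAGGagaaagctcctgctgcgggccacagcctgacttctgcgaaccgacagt
Zfp36l1, chr12:80113014-80113263, minus strand: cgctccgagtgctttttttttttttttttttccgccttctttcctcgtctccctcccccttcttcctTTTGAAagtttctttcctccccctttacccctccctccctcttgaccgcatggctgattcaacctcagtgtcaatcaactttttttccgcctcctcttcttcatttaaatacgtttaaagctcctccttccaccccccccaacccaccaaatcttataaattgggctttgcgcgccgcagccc
Btg1, chr10:96616751-96617000, plus strand: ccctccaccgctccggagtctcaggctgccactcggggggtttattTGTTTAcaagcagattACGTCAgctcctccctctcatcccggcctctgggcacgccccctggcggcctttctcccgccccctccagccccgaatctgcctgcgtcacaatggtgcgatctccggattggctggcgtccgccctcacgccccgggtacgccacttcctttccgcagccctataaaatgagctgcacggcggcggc
Btg2, chr1:134079156-134079405, minus strand: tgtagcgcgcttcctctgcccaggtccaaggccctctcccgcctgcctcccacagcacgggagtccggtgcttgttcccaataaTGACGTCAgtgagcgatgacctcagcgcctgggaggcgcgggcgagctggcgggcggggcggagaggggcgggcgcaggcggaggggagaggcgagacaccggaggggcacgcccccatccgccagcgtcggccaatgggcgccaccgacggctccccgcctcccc

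The Zfp36 window held 1 CArG box, 58 bases before the start, where 1.48% of 32536 promoters of the same length hold one. The Btg2 window held 2 overlapping matches to the cAMP response element core, which together form the full palindrome, and the Btg1 window held 1, and 6.50% of promoters hold at least 1. The forkhead core was found in the Btg1 window, 204 bases before the start, and in 12.02% of all promoters. The cell cycle homology region was found in the Zfp36l1 window and in 15.8% of all promoters. The windows of Btg3, Tob1, Tob2 and Cnot8 held none of the 4 motifs, and 2 windows were searched for Btg3 and 4 for Cnot8. A match describes the letters only, and no binding was measured.

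Btg1 and Btg2, antiproliferative adaptors that are high in resting lymphocytes, were of similar abundance, and their order changed from library to library. Btg1 lies on chromosome 10 (96617001 to 96622813, plus strand). It had 4562, 9414 and 1605 reads in WT against 9549, 1860 and 8955 in Foxm1 HET. Its log2 CPM averaged 7.68 ± 1.03 in WT (SD, n = 3) against 7.96 ± 0.21 in Foxm1 HET (SD, n = 3), so that the Foxm1 HET libraries fell inside the WT range. The log2 fold change of Btg1 was 0.06 (SE 1.62, edgeR adjusted p = 0.998; two-sided exact permutation p = 0.7). It lay between -0.35 without WT replicate 3 and 0.68 without WT replicate 2.

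Btg2, which is also a p53 target and an early-response gene, lies on chromosome 1 (134074865 to 134079155, minus strand). It had 885, 6207 and 6756 reads in WT against 2781, 8023 and 503 in Foxm1 HET, and the lowest as well as the highest library belonged to Foxm1 HET. Its log2 CPM were 7.38 ± 1.81 (SD, n = 3) and 6.69 ± 3.37 (SD, n = 3), respectively. The fitted log2 fold change was 0.85 (SE 1.56, edgeR adjusted p = 0.998; two-sided exact permutation p = 0.8), of opposite sign to the difference of these means. It was -2.46 without Foxm1 HET replicate 2 and -1.72 with limma-voom.

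Btg3, the remaining Btg adaptor, was close to the limit of detection. It lies on chromosome 16 (78359860 to 78376785, minus strand). Its reads were 106, 150 and 0 in WT against 5, 0 and 104 in Foxm1 HET, and a count of 0 allows up to 3 reads by counting error alone. Of the 50-base stretches of its transcripts, 18.1% occur also in other annotated genes, so its counts are uncertain. The log2 fold change was -2.10 (SE 2.98, edgeR adjusted p = 0.998; two-sided exact permutation p = 0.5), and it was -5.48 without Foxm1 HET replicate 3, the library with 104 reads.

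Btg1 made up 71.5%, 47.0% and 12.8% of the summed RPKM of the Btg genes in the WT libraries, in order of replicate, against 67.8%, 12.5% and 88.2% in Foxm1 HET. Btg2 took most of the remainder, from 8.06% to 87.5%. Btg2 was therefore the main Btg transcript in WT replicates 2 and 3 and in Foxm1 HET replicate 2, and Btg1 in the others, so the split did not follow genotype.

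**Figure D2:**
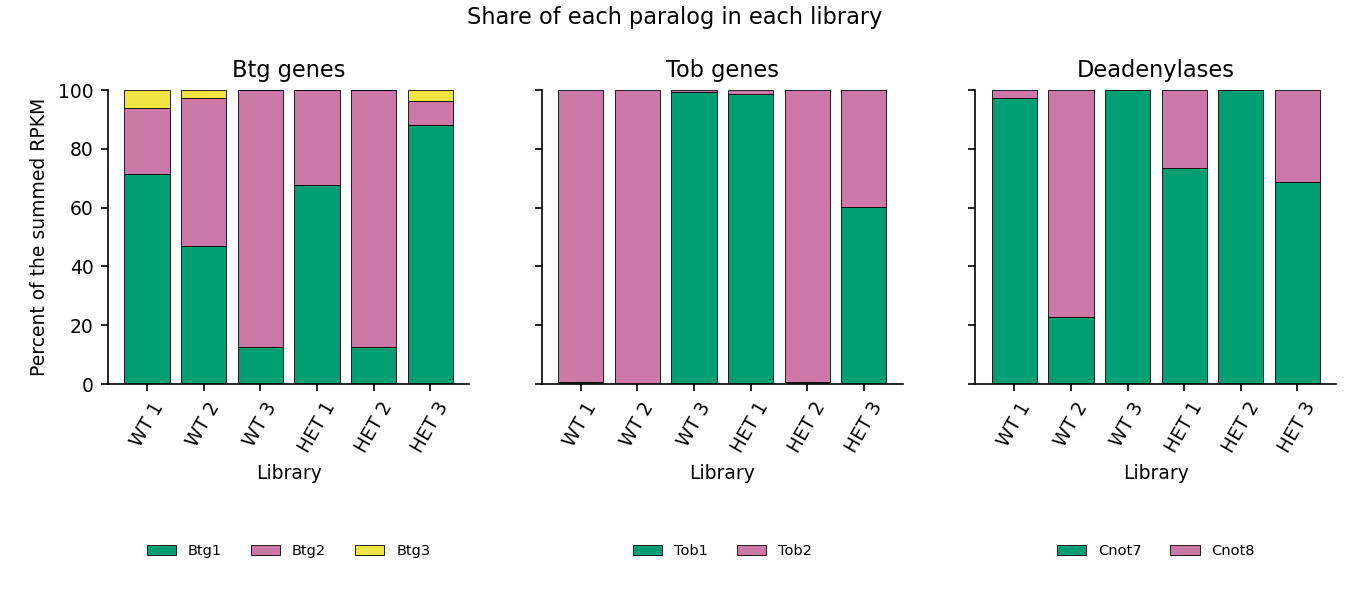
Percent of the summed RPKM (vertical axis) supplied by each paralog in each library for the Btg genes, the Tob genes and the deadenylases Cnot7 and Cnot8. The leading Tob gene switched between libraries of both genotypes, with Tob2 above 99% in WT replicates 1 and 2 and Foxm1 HET replicate 2 and Tob1 above 98% in WT replicate 3 and Foxm1 HET replicate 1.

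Tob1 and Tob2, adaptors that link the poly(A)-binding protein to the deadenylases, were present at high counts in some libraries and near 0 in others. Wide swings between libraries were not particular to them. The pooled SD within genotypes was 4.25 for Tob1 and 3.87 for Tob2, against a median of 3.13 over all genes tested. Over those genes, log2 CPM correlated at 0.289 to 0.327 between WT libraries and at 0.358 to 0.441 between Foxm1 HET libraries. Tob1 (chromosome 11, 94211454 to 94215495, plus strand) had 10, 1 and 768 reads in WT against 8298, 5 and 905 in Foxm1 HET. WT replicate 2 held 1 read of 23012808 and Foxm1 HET replicate 1 held 8298 of 25454418. The log2 CPM of Tob1 were 0.56 ± 4.47 in WT (SD, n = 3) against 3.99 ± 4.02 in Foxm1 HET (SD, n = 3), and Foxm1 HET replicate 2 lay below WT replicate 3. Its log2 fold change was 2.31 (SE 2.40, edgeR adjusted p = 0.998; two-sided exact permutation p = 0.4). It rested on single libraries, with 8.27 without WT replicate 3 and -0.36 without Foxm1 HET replicate 1.

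Tob2 (chromosome 15, 81848270 to 81858326, minus strand) had 3042, 6225 and 10 reads in WT against 178, 1434 and 1050 in Foxm1 HET. The low library was WT replicate 3, in which Tob1 was the higher of the pair. Its log2 CPM averaged 4.90 ± 4.71 in WT (SD, n = 3) against 4.90 ± 2.78 in Foxm1 HET (SD, n = 3), with a log2 fold change of -0.72 (SE 1.89, edgeR adjusted p = 0.998; two-sided exact permutation p = 1). The estimate was -3.18 without Foxm1 HET replicate 2 and 0.25 without WT replicate 2. Tob2 made up 99.4%, 99.97% and 0.74% of the summed RPKM of the pair in WT against 1.21%, 99.4% and 39.9% in Foxm1 HET. No 50-base stretch of the Tob1 transcripts occurs in another annotated gene, and 0.045% of those of Tob2 do.

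Cnot7, one of the catalytic deadenylase subunits, had the largest fitted difference of the 10 and the smallest p. It lies on chromosome 8 (40493036 to 40511304, minus strand). Its reads were 308, 39 and 19523 in WT against 916, 6 and 1795 in Foxm1 HET. WT replicate 3 alone held more reads than the other 5 libraries combined, and without it the Foxm1 HET range of 6 to 1795 reads enclosed the WT values. The log2 CPM averaged 4.97 ± 4.81 in WT (SD, n = 3) against 3.34 ± 2.92 in Foxm1 HET (SD, n = 3). The log2 fold change was -4.19 (standard error 1.88), with an unadjusted p of 0.0258 and an adjusted p of 0.703 in edgeR's quasi-likelihood test. The two-sided exact permutation test, which gives each library the same weight on the log2 scale, gave p = 0.7. Without WT replicate 3 the log2 fold change was 1.49.

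Cnot8, the paralog of Cnot7, was among the lowest of the 10. It lies on chromosome 11 (58104153 to 58118594, plus strand). It had 6, 91 and 1 reads in WT against 225, 0 and 558 in Foxm1 HET. The fitted difference as log2 fold change was 2.14 (SE 3.08, edgeR adjusted p = 0.998; two-sided exact permutation p = 0.7), and it was 5.18 without WT replicate 2, the WT library with 91 reads. Of its exon bases, 2.75% belong also to another gene, and 7.82% of its 50-base stretches occur in other genes. Cnot7 supplied 97.2%, 22.6% and 99.99% of the summed RPKM of the pair in WT against 73.5%, 100% and 68.7% in Foxm1 HET, where the full share rests on 6 reads.

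**Figure D3:**
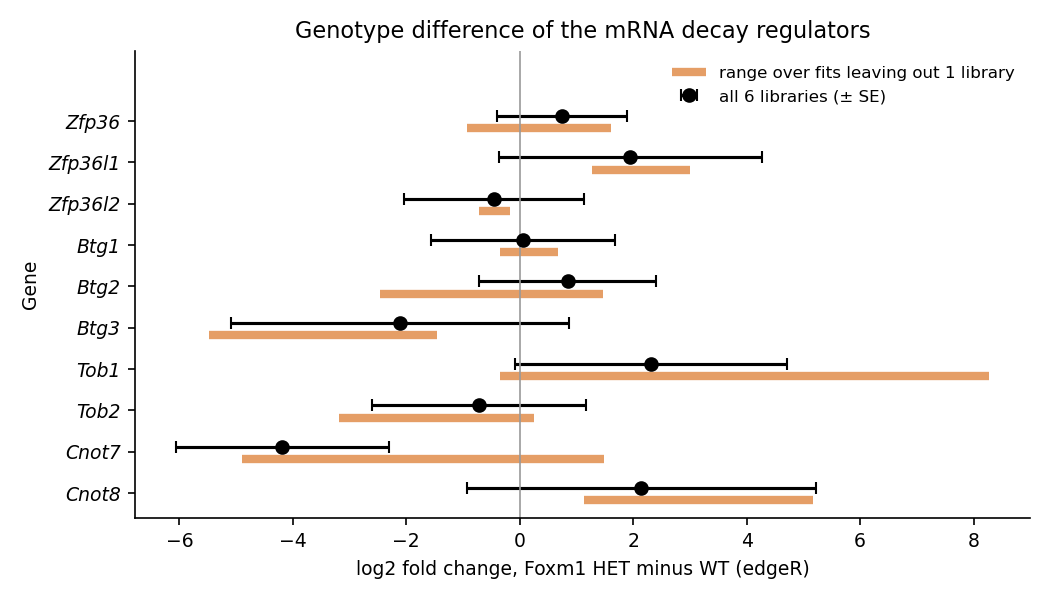
Log2 fold change of Foxm1 HET over WT for each regulator (horizontal axis) from edgeR with all 6 libraries (points, ± standard error) and the range of the 6 fits that left out 1 library each (bars). The standard error spans 0 for each gene except Cnot7, whose bar crosses 0 from -4.90 to 1.49.

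The levels per length fell in the order Zfp36, Zfp36l2, Btg1, Btg2, Zfp36l1, Tob2, Cnot7, Tob1, Cnot8 and Btg3 by mean log2 RPKM. Zfp36 was above Zfp36l2 and Zfp36l2 above Btg1 in 6 of 6 libraries. Below that, neighbours kept their order in 3 to 5 of 6 libraries, so that Btg1 and Btg2, Zfp36l1 and Tob2, Tob2 and Cnot7, and Cnot8 and Btg3 each had the order in 3 of 6. The regulators fell into 5 genes with at least 42 reads in every library, namely the Zfp36 genes, Btg1 and Btg2, and 5 genes with 10 reads or fewer in at least 1 library, namely Btg3, Tob1, Tob2, Cnot7 and Cnot8. The number at 10 reads or fewer was 2, 1 and 3 in WT against 1, 4 and 0 in Foxm1 HET, and the library with 4 was Foxm1 HET replicate 2.

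The genes whose log2 CPM followed Zfp36 most closely over the 6 libraries were Ago2, Cux1 and Hipk1. Their mean absolute difference from Zfp36, after each gene was centred on its own mean, was 0.15, 0.21 and 0.24 log2 units, against a median of 2.82 over all other genes tested. Ago2, the slicer of RNA interference and an RNA-binding regulator itself, had log2 CPM of 7.85, 7.81 and 9.47 in WT against 7.70, 10.84 and 8.08 in Foxm1 HET. All of these genes were highest in WT replicate 3 and Foxm1 HET replicate 2, the libraries with the lowest TMM factors.

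The machinery on which the Zfp36, Btg and Tob proteins draw was examined on a list of 49 further genes for the CCR4-NOT and PAN2-PAN3 deadenylases, poly(A)-binding proteins, decapping, XRN1 and the exosome. Of these, 43 were tested and edgeR called none at an adjusted p of 0.05. An unadjusted edgeR p under 0.05 was found for 2, beside 6.03% of all genes tested. DESeq2 called 1, Cnot10, among the 30 to which it gave an adjusted p, beside 3.13% of all genes with one. The list had 27 positive and 16 negative fold changes and a median log2 fold change of 1.20, which was 0.15 without Foxm1 HET replicate 2. Over all genes tested, 3724 were positive and 4471 negative. Their median was -0.26, and it was -0.30 without that replicate. Pabpc1, the main cytoplasmic poly(A)-binding protein, was the most abundant of the list, with 23607, 17054 and 12248 reads in WT against 20575, 17139 and 26828 in Foxm1 HET, and the genotypes overlapped.

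In 5 of the 43 genes, 3 higher and 2 lower, the genotypes did not overlap, where 4.12% of all genes lay higher and 4.55% lower in this way. Parn, a poly(A)-specific ribonuclease, had 7, 7 and 35 reads in WT against 984, 2686 and 547 in Foxm1 HET (log2 fold change 7.33 ± 2.71 SE, edgeR adjusted p = 0.390). Cnot10, a subunit of CCR4-NOT, had 6, 1 and 3 reads in WT against 538, 99 and 1933 in Foxm1 HET (log2 fold change 7.19 ± 3.74 SE, edgeR adjusted p = 0.844). Cnot4, a ubiquitin ligase, had 258, 263 and 72 reads in WT against 4035, 1386 and 664 in Foxm1 HET (log2 fold change 3.59 ± 2.40 SE, edgeR adjusted p = 0.948). These 3 genes had at most 263 reads in any WT library and more than their WT maximum in each Foxm1 HET library. Pabpc4, another poly(A)-binding protein, had 1493, 711 and 907 reads in WT against 928, 73 and 311 in Foxm1 HET, and its raw reads overlapped although its log2 CPM did not. Wdr61, a subunit of the SKI complex that feeds the exosome, had 1101, 1234 and 749 reads in WT against 917, 0 and 27 in Foxm1 HET, so its raw reads overlapped too. The fold changes of Pabpc4 (-1.85) and Wdr61 (-2.61) had adjusted p-values of 0.998 in edgeR's test.

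Of 35 other RNA-binding regulators, such as Elavl1, the Pumilio, Argonaute and Igf2bp proteins and the m6A readers, 25 were tested and edgeR called none at an adjusted p of 0.05. DESeq2 called 0 of the 19 to which it gave an adjusted p, beside 3.13% of all genes with one. Of all genes tested, 6.03% had an unadjusted edgeR p under 0.05. In this list the 1 gene with such a p was Igf2bp3, which is named here after its values were seen. DESeq2 gave it no adjusted p. Its edgeR p was 0.000502, or 0.0915 after adjustment over all genes tested. It had 4, 4 and 69 reads in WT against 863, 7328 and 17 in Foxm1 HET, with overlap, and upper-quartile scaling was the setting under which it passed the threshold. In 0 of the 25 did the genotypes part in log2 CPM, against 8.68% of all genes tested. The median log2 fold change was 0.19, and it was -0.32 without Foxm1 HET replicate 2. Over all genes tested these medians were -0.26 and -0.30. Caprin1, a stress granule protein and the most abundant of the list, had 5770, 12696 and 10773 reads in WT against 26728, 8621 and 16419 in Foxm1 HET.

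Transcripts known to carry AU-rich elements that the Zfp36 proteins bind were examined on a list of 35 genes, of which 22 were tested. EdgeR called none at an adjusted p of 0.05, 0 had an unadjusted p under 0.05 and DESeq2 called 0 of 17 with an adjusted p. Over all genes these shares were 0.329%, 6.03% and 3.13%, respectively. The list had 13 positive and 9 negative fold changes, with a median of 0.11 that was -0.39 without Foxm1 HET replicate 2. Over all genes tested these medians were -0.26 and -0.30. Dusp1, a MAP kinase phosphatase and early-response gene, was the most abundant with 1352 RPKM on average, close to the 1360 RPKM of Zfp36. Its reads were 82081, 44702 and 41086 in WT against 54466, 60886 and 38652 in Foxm1 HET, with overlap. The genotypes parted in log2 CPM for 3 of the 22, with 1 higher and 2 lower, where 4.12% of all genes tested lay higher and 4.55% lower. Ier3, a stress-response gene, was higher in Foxm1 HET, with log2 CPM of -1.50, -2.22 and 1.26 in WT against 4.92, 5.26 and 1.40 in Foxm1 HET. Bcl2, which blocks apoptosis, was lower, with 4957, 2411 and 5692 reads in WT against 1430, 13 and 52 in Foxm1 HET (log2 fold change -4.07 ± 2.09 SE, edgeR adjusted p = 0.832). Ccnb1, the mitotic cyclin B1, had 258, 686 and 195 reads in WT against 8, 0 and 141 in Foxm1 HET.

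Kinases, phosphatase subunits and 14-3-3 proteins that act on Zfp36 proteins formed a list of 18 genes, and 17 were tested. EdgeR called none at an adjusted p of 0.05, 0 had an unadjusted p under 0.05 and DESeq2 called 0 of 14 with an adjusted p. Over all genes these shares were 0.329%, 6.03% and 3.13%, respectively. The fold changes were positive for 8 and negative for 9, with a median of -0.22 that was 0.61 with RLE scaling. Over all genes tested these medians were -0.26 and -0.13. In 5 genes the genotypes did not overlap in log2 CPM, each lower in Foxm1 HET, beside 4.55% of all genes tested. For Ywhab and Ywhah this held after TMM scaling but not in raw reads or RPKM, which overlapped. They were Mapkapk3, a kinase downstream of p38, Ppp2cb, a catalytic subunit of protein phosphatase 2A, and Ywhab, Ywhah and Ywhaq, which encode 14-3-3 proteins. In Ppp2cb and Ywhah, Foxm1 HET replicate 2 had 0 reads, and in Mapkapk3 and Ywhaq it had 2. Ywhab, which had the most reads of the 5, had 8559, 7046 and 27144 in WT against 6280, 729 and 12821 in Foxm1 HET (log2 fold change -2.04 ± 1.52 SE, edgeR adjusted p = 0.971). Ywhae had the highest mean level per length of the list, 433 RPKM, just above Ywhaz at 429. In 4 of the 6 libraries Ywhae had more reads than Ywhaz. Ywhae had 10668, 8262 and 20619 reads in WT against 42005, 4930 and 40151 in Foxm1 HET, with a log2 fold change of 0.40 (standard error 1.38).

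**Figure D4:**
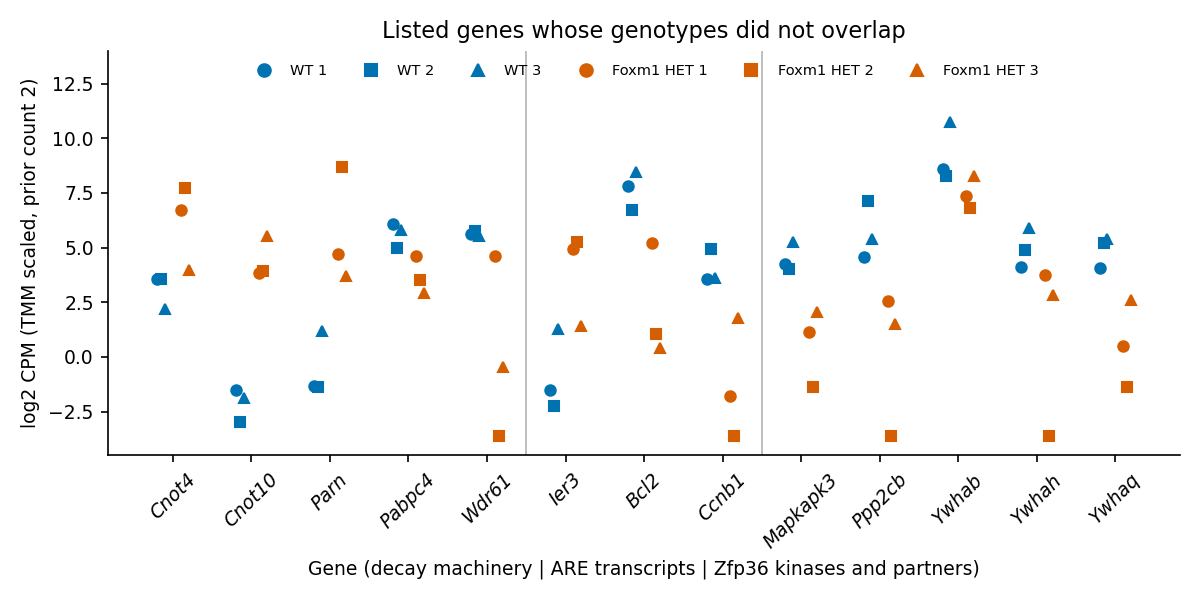
Log2 CPM (vertical axis) in each library of the 13 listed genes that were tested and whose genotypes did not overlap, grouped by list and with marker shape for the replicate number. Parn, Cnot10, Cnot4 and Ier3 were higher and the others lower in each Foxm1 HET library than in each WT library, and Foxm1 HET replicate 2 was the lowest point for Wdr61, Ccnb1, Mapkapk3, Ppp2cb, Ywhab, Ywhah and Ywhaq.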

How the data were processed

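The methods and processing notes state that single reads were aligned to GRCm38 (mm10) with STAR 2.7.2b. The labels and the methods differ on the library kit. The authors deposited raw read counts for 27179 genes, whose counting program and use of strand are not given in the sources used here, as well as normalized log2 values for fewer genes. These deposited log2 values may be scaled by gene length and quantile normalized, which was not tested. Symbols came from the normalized table and from RefSeq. Columns were matched to samples by name. Counts were compared with edgeR 4.0.16 in R 4.3.3 (default filter, TMM, quasi-likelihood test, Benjamini-Hochberg over 8195 genes), log2 CPM used a prior count of 2, and standard errors are the fold change over the square root of F. Alternatives used DESeq2 1.42.0 and limma 3.58.1. The edgeR fit was run on simulated counts with a low dispersion and with the dispersions estimated from these data. The outcome of those runs is not given here. The estimated biological coefficient of variation was 1.66. Genes and lists were chosen with earlier results of these data known. The genes named are the 10 regulators, listed genes whose genotypes did not overlap (up to 6 per list), the gene of each list with the highest mean RPKM and the 3 genes most like Zfp36. Intervals on counts cover counting error only.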

Additional observations from a re-analysis of the deposited data

How the results depend on the processing

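The number of the 10 regulators with an adjusted p under 0.05 was 0 in all 15 alternatives, where DESeq2 gave no adjusted p for 2 of them, although 4 of the 10 fell out of the test when at least 10 reads were required in every library. The count over all genes was 27, and it was 194 with DESeq2, 43 with upper-quartile scaling, 10 with RLE scaling, 7 with library size only, 4 with limma-voom, 1 in the normalized table and 0 with at least 10 reads in every library (157 at an unadjusted p under 0.05). Leaving out 1 library gave 0 to 29 genes. With the replicate number as a block the count was 0 (108 at an unadjusted p under 0.05), the deviations of same-numbered libraries correlated between -0.0687 and 0.0162, and WT replicate 1 did not correlate best with its own number. The methods speak of 3 pairs of mice, but neither they nor the labels say that a number marks a pair, so the libraries were treated as unpaired. The fold change turned sign for Zfp36 with limma-voom (-0.34), for Zfp36l2 in the normalized table (0.20), for Btg2 with limma-voom (-1.72), in the normalized table (-0.95) and with the replicate block (-0.027), and for Tob2 with DESeq2 (0.23) and RLE scaling (0.23). With 1 library left out, the log2 fold changes ran from -0.94 to 1.61 for Zfp36, -0.35 to 0.68 for Btg1, -2.46 to 1.46 for Btg2, -0.36 to 8.27 for Tob1, -3.18 to 0.25 for Tob2 and -4.90 to 1.49 for Cnot7. The sign held in each alternative for Zfp36l1, Btg3 and Cnot8. The median of the decay machinery was 0.55 in the normalized table and 0.15 to 1.86 with 1 library left out. That of the other RNA-binding regulators was 0.58 with DESeq2, 0.58 with RLE scaling, 0.54 with upper-quartile scaling, 0.64 with library size only, 0.73 without a filter, -0.11 with at least 10 reads in every library, 0.50 with the replicate block and -0.32 to 0.86 with 1 library left out. The median over all genes tested, -0.26 in the fit reported above, moved as well. It was -0.13 with DESeq2, -0.13 with RLE scaling, 0.14 with upper-quartile scaling and 0.10 with library size only. Without a filter it was 0.24, with at least 10 reads in every library -0.09 and with the replicate block 0.20. Limma on the deposited normalized values gave 0.07, and leaving out 1 library gave -0.53 to 0.25. The causes of these shifts were not tested. Counts of listed genes under each alternative, chosen after the data were seen, were 0 except for Cnot10 with DESeq2 and Igf2bp3 with upper-quartile scaling. Btg3 and Cnot8 reached at most 150 and 558 reads, and such low counts limit what could be detected there. For genes with more reads the spread between libraries limits it too, with an SE of 1.15 log2 units for Zfp36 and 1.58 for Zfp36l2.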
